A study of Mus musculus with 9 samples.

Results

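Endothelial cells hold to one another through adherens, tight and gap junctions, and 35 genes that build these contacts were followed here in sorted endothelium of mouse liver. They were chosen by name, as cadherin, catenin, claudin, JAM (junctional adhesion molecule), nectin, scaffold and connexin genes, and all 35 were found among the 52636 genes of the deposited count table. Of these, 33 had enough counts to be tested, of 14583 genes tested in all. Polyadenylated RNA came from 4 control libraries, whose genotype is labelled wild type, and from 5 libraries labelled Erg and Fli1 double knockout. Erg and Fli1 encode ETS transcription factors. All mice were given tamoxifen, which induces the deletion, and cells were taken 7 days later. Live cells were sorted as negative for the leukocyte protein CD45, positive for CD31 and labelled by a VE-cadherin antibody that had been injected into the living mouse. The labels used here do not give the age of the mice, the recombinase, the cells in which it is active or the exons deleted.

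In an adherens junction, cadherins of neighbouring cells bind each other and hold catenins on the inside, which tie them to actin. Nectins form a parallel contact that the adaptor afadin links to actin. Tight junctions seal the cleft with claudins, occludin family proteins and JAMs, held by scaffolds such as ZO-1, and gap junctions are channels of connexins that let small molecules pass between cells. Sinusoidal endothelium of the liver is fenestrated and leaky, while claudin-5 and the connexins of arteries are best known from tighter or arterial endothelium.

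The targeted genes were read first. Erg lay at 303, 337, 308 and 297 CPM (a gene's counts relative to the TMM-scaled size of its library) in the 4 control libraries and at 146, 131, 144, 135 and 159 CPM in the 5 libraries labelled knockout. Erg was thus lower in all 5, by 1.12 ± 0.08 on the log2 scale (SE, edgeR adjusted p = 2.61e-05). Fli1 lay at 104, 97.3, 90.4 and 109 CPM in controls and at 125, 151, 172, 123 and 166 CPM in the libraries labelled knockout, so its transcript was not lost at gene level and was higher in all 5 (log2 fold change 0.56 ± 0.12, SE, edgeR adjusted p = 0.00636). The 5 libraries are therefore named by their label, and each difference is relative to it. A count over the whole gene also holds reads from exons that a deletion leaves in place.

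Total counts per library ranged from 26791371 to 36401682, and a single count equalled 0.0260 to 0.0368 CPM. Replicates 2 and 3 of the libraries labelled knockout stood apart. Over all genes, the chi-square per degree of freedom was 98.4 to 182 in pairs of that group with either of them, 28.8 to 50.4 in pairs without them and 20.3 to 51.0 among the controls. All 10 endothelial markers were tested, and Pecam1, Cdh5, Kdr and Stab2 each averaged at least 1408 CPM in both groups. Tek and Tie1 were lower in the libraries labelled knockout by edgeR, and DESeq2 and limma-voom each called 3 of the 10 lower. Lyve1, a marker of sinusoidal and lymphatic endothelium, lay at 815 to 1191 CPM in the controls and at 14.5, 937, 260, 29.5 and 28.1 CPM in knockout-labelled replicates 1 to 5 (log2 -1.99 ± 1.09, SE, edgeR adjusted p = 0.200), so replicates 2 and 3 kept the most of it. Other endothelial markers went either way in those replicates. Kdr was lowest there (2861 and 3160 CPM, controls 4491 to 5174), as was Stab2 (3130 and 3160 CPM, controls 5294 to 5597). Egfl7 was highest there (824 and 1086 CPM, controls 740 to 871). Oit3 was at log2 -0.41 ± 0.14 (SE, edgeR adjusted p = 0.0566). Of 5 platelet markers 4 were higher by edgeR and DESeq2 and 3 by limma-voom. The 5 summed to 26.5 to 40.1 CPM in controls and 66.9 to 138 CPM in the libraries labelled knockout. Itga2b made up most of that sum (means of 26.4 and 79.5 CPM), and Gp1ba was not called (3.575 and 3.81 CPM). Of 5 leukocyte markers tested 2 were higher, S100a8 and S100a9 (sums over all 7 listed of 6.14 to 13.4 and 11.8 to 25.8 CPM). Ptprc, the gene of CD45, was not called (means of 5.81 and 7.74 CPM). Of 10 hepatocyte markers edgeR called 0 (3 lower at an unadjusted p under 0.05 and by DESeq2, 2 by limma-voom), and their sum ranged from 156 to 355 CPM in controls and from 20.3 to 206 CPM in the libraries labelled knockout. Kupffer cell and macrophage markers summed to 74.4 to 341 CPM and 67.1 to 525 CPM, with 0 of 7 called. Stellate cell and fibroblast markers (1 of 7 tested higher, Colec11), cholangiocyte markers (0 of 3), smooth muscle and pericyte markers (0 of 3) and erythroid markers (0 of 4) summed to at most 24.5, 17.0, 10.5 and 50.4 CPM in any library, and no mesothelial marker had enough counts to be tested. In the stellate cell and fibroblast list, limma-voom made 0 calls. Colec11 lay at 0.687 to 0.945 CPM in controls and at 7.09, 4.75, 10.6, 0.810 and 2.07 CPM in knockout-labelled replicates 1 to 5. In the lists with 0 calls other than hepatocytes, DESeq2 and limma-voom made 0 calls as well, and 0 markers had an unadjusted p under 0.05 in edgeR. Their part in the results was not tested. In bulk samples, fewer cells of a type and less RNA per cell cannot be told apart.

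Junction genes differed in both directions. Of the 33 tested, edgeR's quasi-likelihood test called 10 lower and 4 higher in the libraries labelled knockout (threshold 0.05 on the adjusted p), and 19 did not pass. Over all tested genes, 14.8% were lower and 14.5% higher. Among the junction genes the shares were 30.3% and 12.1%, with a median log2 fold change of -0.07 beside 0.011 for all tested genes. Because the 35 genes were chosen with results of these data known, the larger share of lower genes is a description. For 12 of the 33 (8 lower, 4 higher) the ranges of the 2 groups were separate, beside 27% of all tested genes. Of the called genes, Gja5, Jam2, Jup, Magi1 and Jam3 were at least 2-fold lower and Marveld2 at least 2-fold higher, changes that 5.59% and 5.72% of all tested genes reached. The lower genes encoded 4 tight junction proteins (Jam2, Jam3, Cldn5 and Esam), 2 connexins (Gja5 and Gjc1), 2 catenins (Jup and Ctnnb1), the nectin Nectin3 and the scaffold Magi1. The higher ones encoded the tricellular protein Marveld2, the nectin Nectin2, the scaffold Tjp1 and the actin linker Vcl. With knockout-labelled replicates 2 and 3 left out, a choice made after seeing the data, the counts were again 10 lower and 4 higher, but Cldn5 lost its call and Gja1 gained one.

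**Figure D1:**
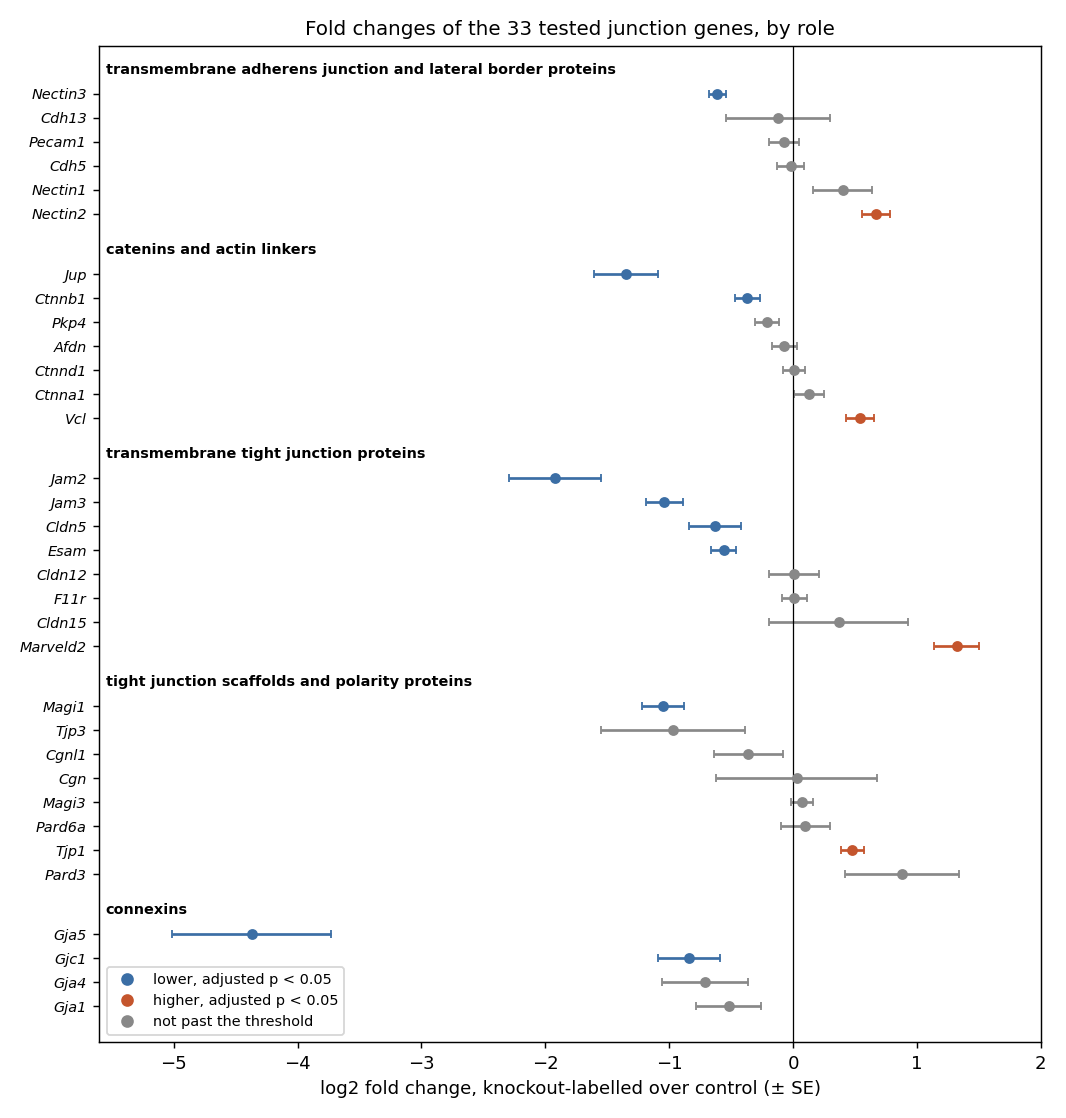
Log2 fold change (horizontal axis, libraries labelled knockout over control, bars SE) of the 33 tested junction genes, grouped by role. Gja5 lies farthest to the left at -4.37 and Marveld2 farthest to the right at 1.32, and each role holds genes on both sides of 0 except the connexins, whose 4 values lie between -4.37 and -0.52.

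Because the targeted factors bind DNA, the promoter windows of the junction genes with the largest changes in each direction are shown. The windows come from RefSeq on GRCm38.p6 and run from 250 bases before to 50 bases after an annotated start. A window was found for 25 of the 35 genes, among them 6 of the 10 lower and 4 of the 4 higher ones. Of the lower and of the higher genes with a window, the pair with the largest change is printed, 5′ to 3′ on the gene's strand, with GGAA, the core that ETS proteins bind, in capitals on either strand (TTCC is its reverse).
Gja5, lower, chr3:97032152-97032451, plus strand: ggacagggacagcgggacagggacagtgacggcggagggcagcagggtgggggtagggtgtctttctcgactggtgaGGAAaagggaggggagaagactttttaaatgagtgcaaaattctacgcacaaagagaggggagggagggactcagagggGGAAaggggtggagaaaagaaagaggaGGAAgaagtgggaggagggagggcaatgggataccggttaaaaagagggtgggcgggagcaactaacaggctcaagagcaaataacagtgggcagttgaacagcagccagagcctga
Jup, lower, chr11:100397741-100398040, minus strand: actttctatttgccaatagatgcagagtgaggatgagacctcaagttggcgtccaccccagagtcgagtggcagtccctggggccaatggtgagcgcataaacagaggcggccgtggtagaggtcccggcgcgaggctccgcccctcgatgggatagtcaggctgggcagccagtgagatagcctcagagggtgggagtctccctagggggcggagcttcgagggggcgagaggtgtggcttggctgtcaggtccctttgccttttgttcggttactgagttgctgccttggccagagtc
Marveld2, higher, chr13:100616895-100617194, minus strand: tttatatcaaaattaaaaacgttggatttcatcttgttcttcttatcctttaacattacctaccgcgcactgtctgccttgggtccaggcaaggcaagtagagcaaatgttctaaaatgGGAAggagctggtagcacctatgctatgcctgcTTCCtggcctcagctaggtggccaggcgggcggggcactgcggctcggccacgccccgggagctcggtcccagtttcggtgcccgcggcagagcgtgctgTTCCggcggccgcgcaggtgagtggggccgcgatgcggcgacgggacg
Nectin2, higher, chr7:19749524-19749823, minus strand: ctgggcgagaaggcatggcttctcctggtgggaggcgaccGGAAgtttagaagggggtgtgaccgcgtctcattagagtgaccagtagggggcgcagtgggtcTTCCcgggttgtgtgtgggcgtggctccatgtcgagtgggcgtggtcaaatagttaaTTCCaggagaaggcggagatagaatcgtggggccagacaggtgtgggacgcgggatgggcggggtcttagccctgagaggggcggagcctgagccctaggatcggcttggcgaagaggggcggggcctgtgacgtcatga
Gja5, Marveld2 and Nectin2 held 3 matches each in the windows shown, and Jup held 0. Another window of Marveld2 in the table, from a nearby start and not shown, held 4. GGAA is short, and 96.0% of all 32851 windows held at least 1 match on either strand (88.9% of the 36 windows of junction genes). The longer GGAAGT, which contains that core, was found in 23.8% of all windows and 25% of those of junction genes. CCGGAAGT, which contains both, was found in 3.89% of all windows and in 1 of the 36, that of Nectin2. Such matches describe the letters of these windows and are not binding sites measured here.

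VE-cadherin, encoded by Cdh5, is the cadherin of the endothelial adherens junction, and its transcript led all 35 genes per length, at 521 ± 26.9 CPM per kb of exon in controls and 513 ± 45.9 in the libraries labelled knockout (SD, n = 4 and n = 5, as throughout). It lay at 2339, 2135, 2210 and 2078 CPM in the controls and at 2440, 1916, 2086, 2223 and 2124 CPM in the libraries labelled knockout. The ranges overlapped, with the highest and the lowest value both in the libraries labelled knockout, and the difference did not pass the test (log2 -0.02 ± 0.11, SE, edgeR adjusted p = 0.906). Pecam1, which encodes the homophilic adhesion protein CD31 of lateral borders, lay at 1506, 1450, 1602 and 1369 CPM in controls and at 1307, 1585, 1525, 1444 and 1181 CPM in the libraries labelled knockout, again with overlapping ranges (log2 -0.07 ± 0.12, SE, edgeR adjusted p = 0.681). Cells entered the sort only if both proteins were detected on them.

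Cdh13 encodes T-cadherin, a membrane-anchored cadherin that lacks the tail for catenins. Its range was wide in both groups, from 120 to 310 CPM in controls and from 84.6 to 333 CPM in the libraries labelled knockout, where replicates 2 and 3 (122 and 84.6 CPM) lay below the other 3. Its fold change was not past the threshold (log2 -0.12 ± 0.42, SE). Cdh2, the gene of N-cadherin, had 21 counts over the 4 controls and 21 over the 5 libraries labelled knockout and was too low to test.

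Nectins went opposite ways. Nectin2 lay at 210, 194, 184 and 195 CPM in controls and at 310, 316, 380, 271 and 278 CPM in the libraries labelled knockout. All 5 lay above every control, a rise of 1.59-fold (log2 0.67 ± 0.11, SE, edgeR adjusted p = 0.00172). Nectin3, whose protein binds nectin-2 across the cleft, lay at 30.8, 27.4, 27.4 and 29.4 CPM in controls and at 19.3, 18.6, 20.2, 17.2 and 18.7 CPM in the libraries labelled knockout. Here all 5 lay below every control, 1.53-fold lower (log2 -0.61 ± 0.07, SE, edgeR adjusted p = 3.63e-04). Nectin1, another nectin gene, was low in both groups (6.70 ± 1.61 and 8.82 ± 2.81 CPM) and did not pass (log2 0.40 ± 0.24, SE). Per length, Nectin2 exceeded Nectin3 by 24.2 to 25.8 times within each control library and by 54.3 to 68.6 times within each library labelled knockout. The lengths merge the exons of all isoforms, 3494 bases for Nectin2 and 12747 for Nectin3. The size of the ratio depends on them, while the relative difference between the groups does not. Afdn, the gene of afadin, to which nectins bind, lay at 147 ± 14.1 and 140 ± 15.5 CPM (log2 -0.07 ± 0.10, SE).

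**Figure D2:**
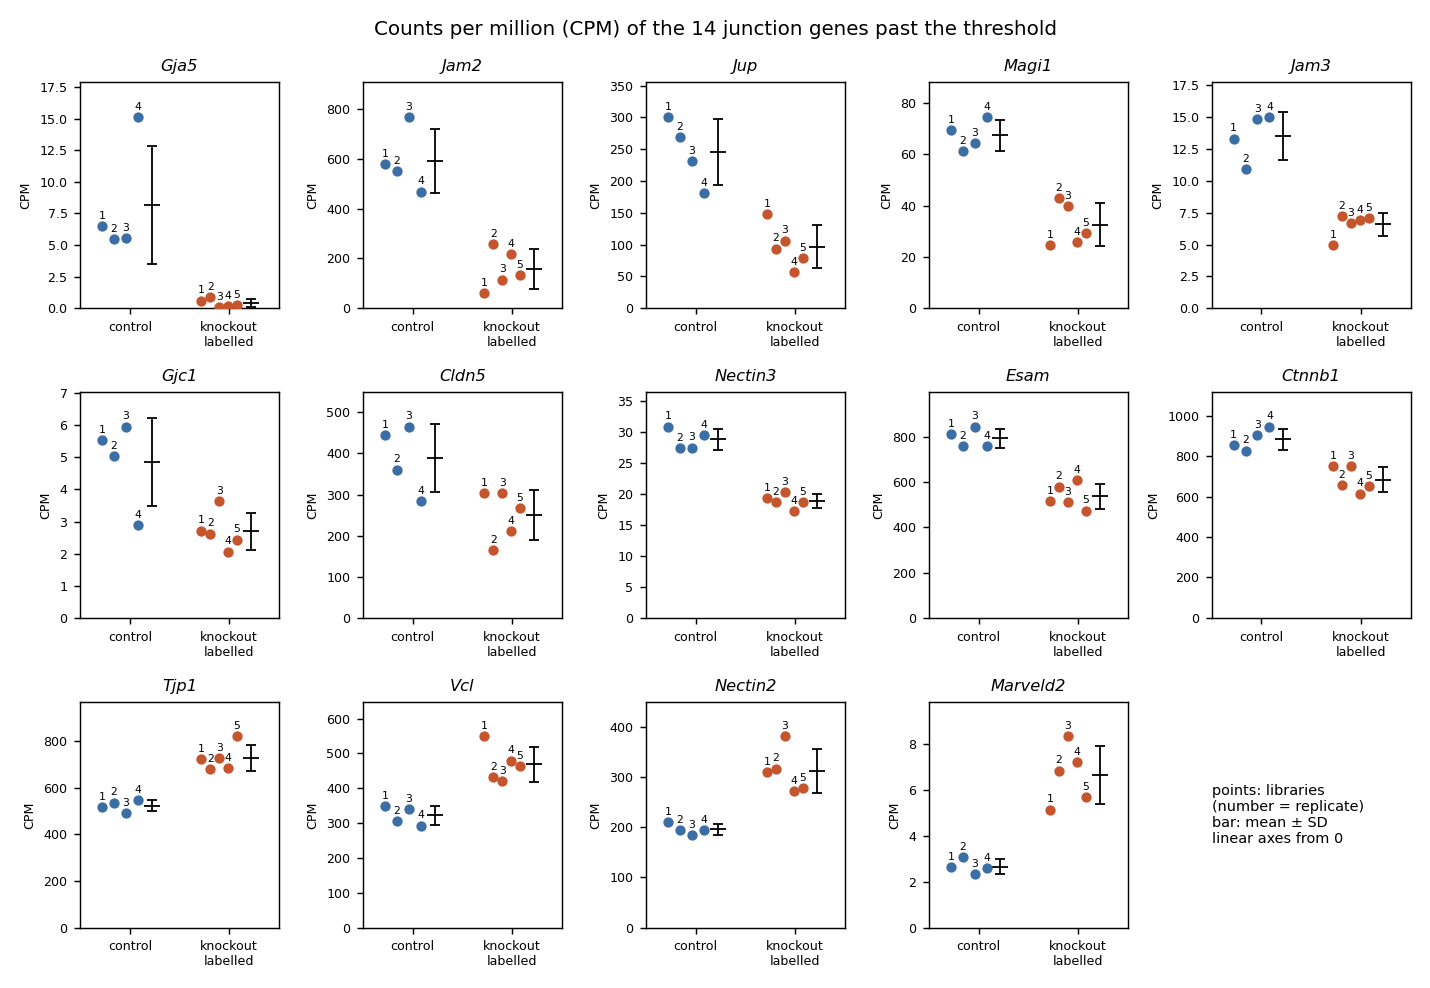
CPM (vertical axes, linear from 0) of the 14 junction genes past the threshold in each of 4 control and 5 knockout-labelled libraries, numbered by replicate, with mean and SD. Groups do not overlap for 12 of the 14, and for Cldn5 and Gjc1 control replicate 4 lies among the libraries labelled knockout.

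The catenins showed unequal differences. Jup encodes plakoglobin (gamma-catenin), which can take the place of beta-catenin on a cadherin tail. It lay at 301, 270, 231 and 181 CPM in controls and at 148, 93.8, 106, 56.2 and 79.2 CPM in the libraries labelled knockout, a fall without overlap of 2.54-fold (log2 -1.35 ± 0.26, SE, edgeR adjusted p = 0.00403). Ctnnb1, the gene of beta-catenin, lay at 854, 827, 903 and 946 CPM in controls and at 749, 655, 750, 614 and 652 CPM in the libraries labelled knockout. These ranges too did not overlap, and the fall was smaller, 1.29-fold (log2 -0.37 ± 0.10, SE, edgeR adjusted p = 0.0210). The Ctnnb1 call ended in 4 settings, among them without control replicate 3 (1.28-fold, edgeR adjusted p = 0.0584) or 4 (1.26-fold, 0.0557) and with library totals as the only scaling (1.23-fold, 0.0516). Over all alternatives its adjusted p ranged from 4.93e-04 to 0.117 and its log2 fold change from -0.40 to -0.30.

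Ctnna1 encodes alpha-catenin, the actin-binding partner of beta-catenin and plakoglobin, and lay at 683 ± 42.9 CPM in controls and 747 ± 103 CPM in the libraries labelled knockout (log2 0.13 ± 0.12, SE, not past the threshold). Per length, Jup therefore stood at 0.269 to 0.443 of Ctnna1 in the controls and at 0.0688 to 0.218 in the libraries labelled knockout. The ratio of Jup to Ctnnb1, 0.155 to 0.284 in controls and 0.0738 to 0.159 in the libraries labelled knockout, overlapped between the groups in 1 pair, control replicate 4 and knockout-labelled replicate 1. Relative to Cdh5, Ctnnb1 stood at 0.296 to 0.368 in controls and 0.224 to 0.291 in the libraries labelled knockout. Ctnnd1, the gene of p120-catenin, which holds VE-cadherin at the surface, lay at 67.9 ± 5.71 and 68.5 ± 6.94 CPM (log2 0.01 ± 0.09, SE). Its level is uncertain, since 61.2% of its exon bases are shared with the gene model Gm28635 on the same strand, which is listed at 0 in every library. Pkp4, the gene of the p120-related plakophilin-4, lay at 50.05 ± 3.31 and 43.2 ± 5.24 CPM (log2 -0.21 ± 0.10, SE, edgeR adjusted p = 0.131).

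Vinculin, encoded by Vcl, is recruited to alpha-catenin where a junction is under tension. It lay at 349, 305, 341 and 293 CPM in controls and at 549, 431, 420, 479 and 463 CPM in the libraries labelled knockout, 1.45-fold higher and without overlap (log2 0.54 ± 0.11, SE, edgeR adjusted p = 0.00435). The neighbouring gene Ap3m1 on the opposite strand covers 25.5% of the exon bases of Vcl and lay at 42.5 and 44.7 CPM (log2 0.07 ± 0.07, SE). Of 11 other catenin, plakophilin and actin linker genes tested, 2 were higher and 0 lower, beside 14.5% and 14.8% of all tested genes. Both encode actin-associated proteins of cell adhesions. Zyx, the gene of zyxin, was at 166 ± 9.46 CPM in controls and 427 ± 72.9 CPM in the libraries labelled knockout (log2 1.36 ± 0.13, SE, edgeR adjusted p = 1.04e-04), and Vasp, which promotes actin filament growth, at 144 ± 4.08 and 198 ± 28.5 CPM (log2 0.46 ± 0.11, SE). The platelet marker sums given above are higher in the same 5 libraries, and their part in these values was not tested.

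Of 8 tight junction transmembrane genes tested, 4 were lower and 1 higher, beside 14.8% and 14.5% of all tested genes. Jam2 encodes JAM-B, an immunoglobulin family protein of endothelial junctions that binds JAM-C. It lay at 579, 552, 770 and 469 CPM in controls and at 59.7, 258, 115, 217 and 132 CPM in the libraries labelled knockout. All 5 lay far below the lowest control. The fall was 3.79-fold (log2 -1.92 ± 0.37, SE, edgeR adjusted p = 0.00439), and the deepest fall was in replicate 1. Jam3, the gene of JAM-C, lay at 13.3, 10.9, 14.9 and 15.0 CPM in controls and at 4.97, 7.25, 6.65, 6.92 and 7.08 CPM in the libraries labelled knockout. It fell 2.06-fold without overlap (log2 -1.04 ± 0.15, SE, edgeR adjusted p = 7.65e-04). The antisense gene Gm48796 covers 36.2% of its exon bases and held 675 counts over all libraries beside 2769 for Jam3. It was not past the threshold (log2 -0.38 ± 0.28, SE).

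F11r, the gene of JAM-A, the third member of the family, lay at 240 ± 23.9 CPM in controls and 242 ± 25.6 CPM in the libraries labelled knockout (log2 0.01 ± 0.10, SE, edgeR adjusted p = 0.951). Per length, F11r and Jam2 stood near equal in controls, with a ratio of 0.781 to 1.01, and F11r stood at 1.82 to 10.5 times Jam2 in the libraries labelled knockout. The highest ratio, 10.5, belonged to replicate 1, the library with the lowest Jam2. Esam encodes a JAM-related adhesion protein of endothelium and platelets, and it was the second most abundant of the 35 per length in controls, at 277 ± 14.7 CPM per kb. It lay at 812, 760, 846 and 760 CPM in controls and at 517, 580, 512, 611 and 475 CPM in the libraries labelled knockout. The fall was 1.47-fold and without overlap (log2 -0.56 ± 0.10, SE, edgeR adjusted p = 0.00293). Its ratio to Cdh5 per length was 0.509 to 0.561 in controls and 0.310 to 0.444 in the libraries labelled knockout.

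Claudin-5, encoded by Cldn5, is the main claudin of endothelium. It lay at 445, 361, 465 and 283 CPM in controls and at 303, 165, 304, 212 and 268 CPM in the libraries labelled knockout. Control replicate 4 fell within the range of the other group, and the fall of 1.55-fold passed narrowly (log2 -0.63 ± 0.21, SE, edgeR adjusted p = 0.0439). That call ended without control replicate 1, 2 or 3 (0.114, 0.0761 and 0.120), without knockout-labelled replicate 2, 4 or 5 (0.0592, 0.0880 and 0.0680) or 2 and 3 together (0.0504), with no count filter (0.0703) and with library totals only (0.0677), and it kept its direction in each. Over all alternatives its adjusted p ranged from 0.0148 to 0.120.

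The other claudins were minor. Cldn12 lay at 12.1 ± 0.745 and 12.2 ± 3.64 CPM and Cldn15 at 3.65 ± 1.17 and 4.69 ± 4.50 CPM, neither past the threshold. Among the libraries labelled knockout, Cldn12 was highest in replicates 2 and 3 (15.5 and 16.7 CPM, the other 3 at 9.10 to 10.6), and Cldn15 reached 12.6 CPM in replicate 2 alone, with 1.52 to 3.35 CPM in the other 4. Marveld2 encodes tricellulin, which sits where 3 cells meet. It was low and rose without overlap, from 2.65, 3.09, 2.33 and 2.60 CPM to 5.15, 6.85, 8.34, 7.22 and 5.71 CPM, 2.49-fold (log2 1.32 ± 0.18, SE, edgeR adjusted p = 6.99e-04). Ocln, the gene of the related occludin, had 30 counts in the 4 controls and 45 in the 5 libraries labelled knockout and was too low to test. In absolute terms the rise of Marveld2 was small: it reached 1.97 CPM per kb, beside 177 for Cldn5 and 188 for Esam in the same libraries.

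**Figure D3:**
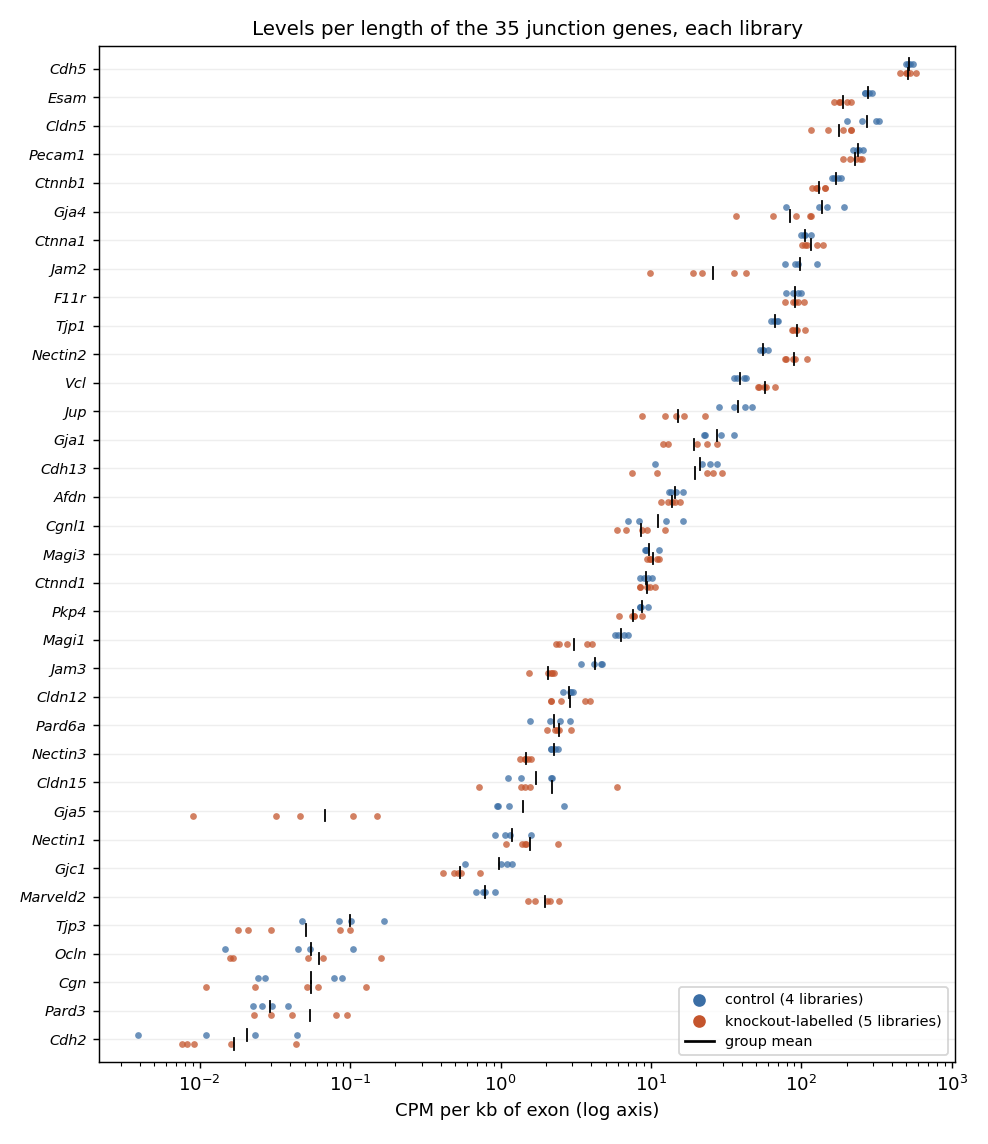
Level per length (horizontal axis, CPM per kb of exon, log scale) of all 35 junction genes in every library, ordered by control mean (black ticks: group means). Cdh5 is at the top with 521 CPM per kb in controls, Jam2 moves from 98.0 to 25.9 CPM per kb, and 5 genes at the bottom stay under 0.2 CPM per kb in each library.

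Among scaffolds, Tjp1 rose and Magi1 fell. Tjp1 encodes ZO-1, which binds claudins, JAMs and actin, and it was the most abundant scaffold per length. It lay at 517, 537, 491 and 547 CPM in controls and at 725, 679, 728, 685 and 820 CPM in the libraries labelled knockout, 1.39-fold higher with no overlap (log2 0.48 ± 0.09, SE, edgeR adjusted p = 0.00421). Magi1 encodes a scaffold that joins VE-cadherin complexes to signalling proteins. It lay at 69.6, 61.2, 64.2 and 74.7 CPM in controls and at 24.6, 43.1, 39.7, 25.7 and 29.3 CPM in the libraries labelled knockout, 2.07-fold lower (log2 -1.05 ± 0.17, SE, edgeR adjusted p = 0.00177). Replicates 2 and 3 kept more of it than the other 3, so leaving them out deepens the fall by construction, to 2.53-fold. Its relative Magi3 lay at 83.2 ± 9.25 and 87.5 ± 6.97 CPM (log2 0.07 ± 0.09, SE).

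The remaining scaffolds did not pass. Cgnl1, the gene of paracingulin, lay between 55.1 and 129 CPM in controls and between 46.9 and 97.4 CPM in the libraries labelled knockout (log2 -0.36 ± 0.28, SE). Pard6a, a partner of atypical protein kinase C in cell polarity, lay at 3.60 ± 0.902 and 3.85 ± 0.516 CPM. Pard3 (55 and 129 counts over the controls and over the libraries labelled knockout), Tjp3 (47 and 29) and Cgn (42 and 53), which encode the polarity protein Par3, ZO-3 and cingulin, stayed under 1.5 CPM in every library. Their log2 standard errors were between 0.46 and 0.65.

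All 4 connexin genes had lower means in the libraries labelled knockout. Of the 4, 2 passed the test, beside 14.8% of all tested genes called lower. Gja5 encodes connexin 40, a gap junction protein of arterial endothelium. It lay at 6.51, 5.43, 5.51 and 15.2 CPM in controls and at 0.600, 0.864, 0.0520, 0.184 and 0.267 CPM in the libraries labelled knockout, from 1061 counts in all to 60 counts. Control replicate 4 stood far above the other 3, and the lowest control (5.43 CPM) lay well above the highest of the other group (0.864 CPM). The fold was 20.7 (log2 -4.37 ± 0.64, SE, edgeR adjusted p = 0.00110). Gpr89, on the opposite strand, shares 2.87% of the exon bases of Gja5 and was itself lower (29.99 to 16.7 CPM on average, log2 -0.85 ± 0.14, SE). If strand was ignored in counting, some reads of these genes cannot be told apart.

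Gjc1, which encodes connexin 45, lay at 5.53, 5.03, 5.96 and 2.89 CPM in controls and at 2.72, 2.62, 3.64, 2.06 and 2.44 CPM in the libraries labelled knockout. Control replicate 4 again lay within the other group's range, and the fall was 1.80-fold (log2 -0.84 ± 0.25, SE, edgeR adjusted p = 0.0277). The call ended without control replicate 1, 2 or 3 (0.0763, 0.0683 and 0.0836) or knockout-labelled replicate 1, 4 or 5 (0.0520, 0.0557 and 0.0568), within a range over all alternatives of 0.00628 to 0.0836. Gja4, the gene of connexin 37, was the most abundant connexin per length, at 138 ± 47.0 CPM per kb in controls. It lay at 325, 222, 248 and 133 CPM in controls and at 194, 154, 62.0, 192 and 109 CPM in the libraries labelled knockout, with overlap and no call (log2 -0.71 ± 0.35, SE, edgeR adjusted p = 0.156). Gja1, the gene of connexin 43, lay at 365, 301, 231 and 233 CPM in controls and at 124, 241, 280, 133 and 209 CPM in the libraries labelled knockout (log2 -0.52 ± 0.26, SE, edgeR adjusted p = 0.162). Replicates 2 and 3 held the highest Gja1 of their group. Without them, a choice made after seeing the data, Gja1 was 1.81-fold lower and passed (edgeR adjusted p = 0.0247). Leaving out the highest values of the lower group deepens the fall by construction, so that call is no support for it. Per length, Gja1 stood at 0.153 to 0.288 of Gja4 in controls and at 0.105 to 0.741 in the libraries labelled knockout, the highest value being that of replicate 3.

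**Figure D4:**
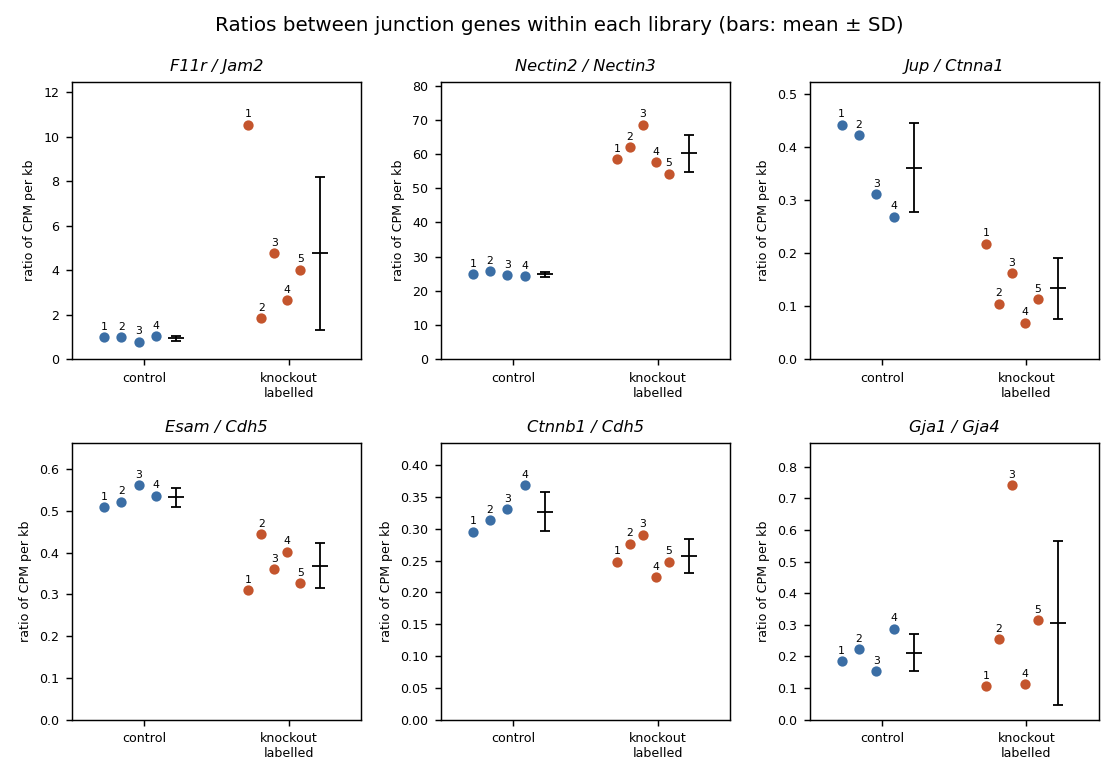
Ratios of level per length (vertical axes, linear from 0) between 6 pairs of junction genes within each library, numbered by replicate, with mean and SD; the pairs were chosen after their values were seen. Nectin2 over Nectin3 is 24.2 to 25.8 in the controls and 54.3 to 68.6 in the libraries labelled knockout, and Gja1 over Gja4 overlaps between the groups.

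In the order of levels per length, Cdh5 stood alone at the top in controls. Esam, Cldn5 and Pecam1 followed at 277, 274 and 238 CPM per kb, neighbours whose control ranges overlapped, then Ctnnb1 (170), Gja4 (138), Ctnna1 (106), Jam2 (98.0) and F11r (90.2), each overlapping the next. In the libraries labelled knockout, Cdh5 remained highest and Pecam1 came next at 226 CPM per kb. Jam2 dropped from place 8 to place 12, Gja4 from 6 to 10, and Tjp1 moved from place 10 to place 7. Replicates 2 and 3 of the libraries labelled knockout both lay above the other 3 for 7 of the 33 tested junction genes (21.2%) and both below for 4 (12.1%), beside 18.4% and 18.6% of all tested genes.

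A further 125 junction genes, listed by family, were read in the same fit, and 71 of them had enough counts to be tested. Of these 11 were higher and 16 lower, 38.0% in either direction, beside 29.3% of all tested genes. That share, 14.5% higher and 14.8% lower, stands beside each list that follows. Of 3 nectin and nectin-like genes tested, 2 were higher and 0 lower. Pvr, a nectin-related receptor that binds nectin-3, was at 79.7 ± 7.78 CPM in controls and 288 ± 68.3 CPM in the libraries labelled knockout (log2 1.86 ± 0.17, SE, edgeR adjusted p = 8.09e-05). Cadm3, a nectin-like adhesion gene, was at 11.3 ± 3.71 and 57.5 ± 29.4 CPM (log2 2.34 ± 0.47, SE). Of 4 other cadherin genes and 2 other genes of the CTX family (immunoglobulin proteins related to JAMs), 0 passed the edgeR test or had an unadjusted p under 0.05 in it, and DESeq2 and limma-voom called 0.

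Of 20 other claudin and MARVEL genes only 4 had enough counts, and 2 of the 4 were lower: Marveld1 (125 ± 17.9 to 65.0 ± 13.96 CPM, log2 -0.95 ± 0.17, SE) and the claudin-like Cldnd1 (57.6 ± 3.07 to 45.9 ± 3.29 CPM, log2 -0.33 ± 0.07, SE). Among 16 other scaffold and polarity genes tested, 2 were higher and 4 lower. The largest fall was of Mpdz, a scaffold with many PDZ domains that binds claudins and JAMs (74.3 ± 5.13 to 36.6 ± 3.83 CPM, log2 -1.02 ± 0.09, SE, edgeR adjusted p = 5.88e-05). The angiomotin gene Amot fell from 72.8 ± 2.81 to 45.2 ± 9.71 CPM, and the polarity gene Pard6g rose from 5.87 ± 1.47 to 14.9 ± 6.02 CPM. Of 19 other connexin and pannexin genes, 4 were tested and 1 was lower, Gjb2, the gene of connexin 26, which hepatocytes use (0.606 ± 0.189 to 0.253 ± 0.0398 CPM). It lies under the mean of 1 CPM required of other named genes and was added after its values were seen. The summed hepatocyte markers ranged from 156 to 355 CPM in controls and from 20.3 to 206 CPM in the libraries labelled knockout, with overlap. Their part in the Gjb2 value was not tested.

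Of 27 regulators of the endothelial junction tested, 5 were higher and 9 lower, beside 14.5% and 14.8% of all tested genes. The tyrosine kinase gene Src rose from 1.001 ± 0.114 to 5.20 ± 2.15 CPM (log2 2.37 ± 0.32, SE, edgeR adjusted p = 6.68e-04), while Yes1, of the same kinase family, fell from 123 ± 16.3 to 85.1 ± 4.25 CPM (log2 -0.53 ± 0.09, SE). Rapgef1, which activates the small GTPase Rap1 that strengthens VE-cadherin contacts, fell from 412 ± 62.3 to 217 ± 38.3 CPM (log2 -0.92 ± 0.15, SE, edgeR adjusted p = 0.00157).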

How the data were processed

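The deposited table holds the authors' raw counts for Ensembl genes, with a column for each sample. Per the submitters' processing notes, the build GRCm38 and the tools STAR 2.7.6a and FastQC 0.11.5 are named without their roles. Which program counted reads, with which annotation and strand setting, is not given in the sources used here. Per the labels' protocols, libraries were made with an unstranded or a stranded TruSeq kit, not stated for each library. Groups came from sample titles and columns were matched to sample descriptions. Nothing says that each sample is a separate animal, so p-values reflect only how these samples spread, which may be technical.

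Symbols, positions and exon lengths (merged over all isoforms) came from GENCODE M21 on GRCm38. Levels and ratios per length depend on these merged lengths, which may exceed those of the transcripts present. All 35 junction genes matched, and 1 marker, Tf, did not. Genes were filtered with filterByExpr (minimum count 10, minimum total 15), scaled by TMM, then fitted with edgeR 4.0.16 under R 4.3.3 (glmQLFit, robust, then glmQLFTest, no covariate), with Benjamini-Hochberg adjustment over all 14583 genes and a threshold of 0.05. SE is the log2 fold change over the square root of F. This SE reflects the spread between libraries as well as counting error. The members, lists and tests were chosen with earlier results of these data known. Named are Erg and Fli1, all members, and up to 3 called genes of each other list with the smallest p and a mean of at least 1 CPM. Alternatives were DESeq2 1.42.0, limma-voom (limma 3.58.1), 3 scalings, 2 filters, the replicate number as a block and the omission of each library in turn. Added after seeing the data were a sex term (sex read from Xist against Ddx3y) and leaving out knockout-labelled replicates 2 and 3. Control replicates 1, 2 and 4 and knockout-labelled replicates 1 and 2 read as male, the others as female. Both sexes were thus in each group, but not evenly.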

Additional observations from a re-analysis of the deposited data

Results flagged for a closer look

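In 70 groups of libraries checked (33 tested junction genes, Erg and Fli1, in each of 2 groups), 5 held a library far from the others, where chance flags about 1 in 20 groups. Among the libraries labelled knockout these were replicate 2 for Cldn15 (12.6 CPM, the highest), replicate 1 for Jam3 (4.97 CPM, the lowest) and replicate 3 for Nectin1 (13.6 CPM, the highest). Among the controls it was replicate 4, the highest for both Magi3 (97.1 CPM) and Gja5 (15.2 CPM). The falls of Jam3 and Gja5 kept their calls without those libraries.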

How the results depend on the processing

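Over all alternatives, 7 to 10 of the junction genes were lower and 3 or 4 higher. Calls ended only for Cldn5, Ctnnb1, Gjc1 and, in 1 setting, Tjp1, and the other 10 called genes kept their calls and directions in every alternative that tested them. Replicate numbers showed no sign of pairing the samples. The correlations of deviations for numbers 1 to 4 were 0.291, -0.031, -0.018 and -0.333, beside -0.316 to 0.321 for pairs with unlike numbers. Knockout-labelled replicate 5 has no control of its number, so it adds nothing to the fold changes of a fit with a replicate block. With a replicate block, 1296 genes in all were higher and 1375 lower (2110 and 2161 without it), 3 and 9 junction genes were called, Tjp1 (adjusted p = 0.0538) and Ctnnb1 (0.117) lost their calls, and Ctnnd1 was at -0.04. With library totals only, 2623 genes were higher and 1808 lower. Of the 19 tested genes without a call, 8 changed sign in at least 1 alternative. Cdh5 was at 0.04 with library totals only. Limma-voom gave -0.0021 for Cldn12 and -0.14 for Cgn, and a sex term -0.01 for F11r and -0.02 for Ctnnd1. Without knockout-labelled replicates 2 and 3, Cdh5 was at 0.06, Cdh13 at 0.32, Cldn12 at -0.32, Cldn15 at -0.45 and Cgn at -0.77. Leaving out single libraries gave -0.07 to 0.02 for Cdh5, -0.35 to 0.09 for Cdh13, -0.13 to 0.11 for Cldn12, -0.42 to 0.59 for Cldn15, -0.05 to 0.07 for F11r, -0.04 to 0.06 for Ctnnd1, -0.05 to 0.23 for Pard6a and -0.54 to 0.35 for Cgn. The cause of these shifts was not tested. Cdh2 and Ocln had too few counts to be tested, Cgn, Pard3 and Tjp3 stayed under 1.5 CPM in every library, and no gene-level count tells isoforms or protein at the junction.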
